A study of Mus musculus with 8 samples.

Results

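Mouse embryonic stem cells treated with sd-linc1393 (sd) were set against untreated wild-type cells of the same kind (control), with 2 RNA-seq libraries in each group. They are 4 of the 8 libraries of a study that asked how linc1393, a long non-coding RNA, takes part in keeping cells pluripotent; the other 4 were given reagents called sh-linc1393 and dd-linc1393 and enter here through the shared estimate of spread. The genotype field of the sd libraries repeats the treatment, so no other allele is known, and the labels do not say what sd stands for, how it was delivered, for how long, or whether a line is a clone. The control cells received nothing, so giving a reagent and acting on linc1393 cannot be told apart. The level of linc1393 itself was not analysed here, since no row could be matched to it. The labels do not say whether the 2 libraries of each group were grown separately, so p-values reflect the spread of these libraries alone, and part of it may be technical. The comparison covered 15495 genes, those with a mean of at least 1 FPKM (fragments per kilobase of transcript, scaled to the library's total) over the 4 libraries, out of 52338 genes with values.

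Embryonic stem cells keep their identity through a network of transcription factors around Pou5f1, Sox2 and Nanog. In the naive state this network is sustained by LIF acting through Stat3, and FGF acting through ERK pushes cells towards the formative and primed states from which the germ layers arise. A small share of cells in such cultures passes through a state resembling the early cleavage embryo, marked by the Zscan4 genes. Long non-coding RNAs act in this setting in part by binding chromatin regulators such as Wdr5 and Polycomb complexes, which is why genes of those complexes are described here as well.

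The 10 embryonic stem cell markers all lay above the filter and summed to 1888 and 10129 FPKM in sd replicates 1 and 2, against 1471 and 8689 FPKM in control replicates 1 and 2. Dppa5a alone gave 464 and 8584 FPKM of these sums in sd, and 292 and 7286 FPKM in control. The 8 fibroblast feeder markers summed to 1.26 and 4.21 FPKM in sd, against 0.880 and 5.94 FPKM in control, with 4 and 0 of them at 0 in sd and 6 and 0 at 0 in control. Markers of primitive endoderm, trophoblast, neuroectoderm and mesoderm summed to between 2.09 and 21.1 FPKM in the sd libraries and between 1.71 and 22.1 FPKM in the control libraries. The part of other cell types in the results was not tested. Depth, as reads recovered from the FPKM steps, was 20346942 and 15365417 in sd and only 6415130 and 3658368 in control. A gene of 1 kb needs 3 reads to be told from a count of 0, and those 3 reads would give 0.147 and 0.195 FPKM in sd but 0.468 and 0.820 FPKM in control, counting error only. The first principal component of all 8 libraries held 77.5% of the variance. Deviations of the sd and control libraries from their group means, taken at the same replicate number, correlated at 0.806. Differences are therefore mostly given within replicate 1 and within replicate 2 beside that of the groups, on the log2(FPKM + 1) scale, as sd minus control.

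No gene passed the limma test at an adjusted p of 0.05 (percent called: 0 of 15495). The smallest adjusted p was 1 after rounding, and 54 genes had an unadjusted p under 0.05. The count was 0 by voom on recovered reads too (16 unadjusted). Without control replicate 1 the limma fit called 100 genes, all lower in sd (819 unadjusted); that fit sets 2 sd libraries against control replicate 2 alone, which is assumed to vary like the other groups. None of the differences below is therefore a call, and the values are given as measured. Each standard error (SE) below comes from the limma fit without replicate number, so it includes the gap between replicate numbers. An FPKM in these bulk libraries cannot tell fewer cells that express a gene from less RNA per cell.

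Differences of 1 log2 unit or more in the same direction within both replicate numbers were found for 159 genes on the higher side (1.03% of genes tested) and 42 on the lower side (0.271%). Processed pseudogenes, copies whose reads are hard to tell from those of their parent genes, made up 112 of the 159 higher genes (70.4%) and 9 of the 42 lower ones (21.4%), beside 3578 of all 15495 genes tested (23.1%). Among genes with a named symbol, 23 were higher and 12 were lower to this degree, of 10191 tested; the 23 comprised 20 protein-coding and 3 microRNA genes. The split between directions depended on the processing. It was 159 to 42 on the values as deposited, 109 to 70 after median ratio scaling, 338 to 211 with a pseudocount of 0.1, and 79 to 75 after centring on transcript GC content. Both sd libraries lay above both control libraries for 1604 genes (10.4%) and below them for 470 (3.03%). That split was 1228 to 1213 after quantile normalization, 1072 to 824 after median ratio scaling and 917 to 90 among genes with a mean of at least 5 FPKM.

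The 2 replicate numbers gave largely different pictures. In replicate 1, 2076 genes were higher and 569 lower in sd by at least 1 log2 unit, and in replicate 2, 677 were higher and 1851 lower. The median difference of all genes tested was 0.27 in replicate 1 and -0.01 in replicate 2, and 0.13 over both. After quantile normalization that overall median was 0.05, and after median ratio scaling it was -0.000682, so a gene or list is best read against these shifts. Across the 15495 genes, Spearman's rho between both sets of differences was 0.138, and across the 1434 genes with at least 20 FPKM in all 4 libraries it was 0.0879, with 59.7% of those genes on the same side in both numbers. Genes are not independent, and a pair of libraries shares its depth and base composition, so these are descriptions. Of all genes tested, 35% were higher and 13.1% lower in sd within both numbers, and 27.8% on each side after GC centring. Counts of list members are to be read beside these shares.

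**Figure D1:**
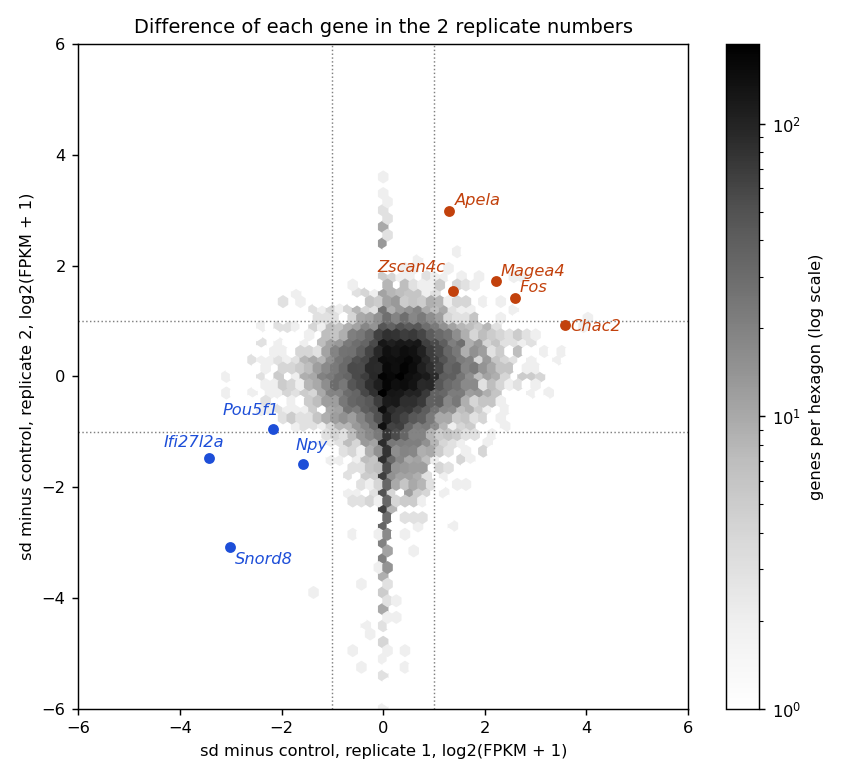
Difference of each of the 15495 genes tested (sd minus control, log2(FPKM + 1)) in replicate 1 on the x axis and replicate 2 on the y axis; grey hexagons show the number of genes on a log scale, dotted lines mark 1 log2 unit, 19 genes past 6 log2 units lie outside the axes, and named genes are coloured orange where higher and blue where lower in sd. The cloud has little slope (Spearman's rho 0.138), with Apela, Fos, Magea4 and Zscan4c in the upper right and Snord8, Ifi27l2a and Npy in the lower left.

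The differences in replicate 2 moved with base composition. Over 10324 protein-coding genes split into 10 equal groups by transcript GC content, the median difference in replicate 2 was 0.41 in the group with the lowest GC content and -0.62 in the group with the highest. In replicate 1 the same medians were 0.34 and 0.17. Spearman's rho between the difference and GC content across these genes was -0.605 in replicate 2 and -0.0384 in replicate 1. Among named genes past 1 log2 unit in both numbers, the median GC content was 45.1% for the 23 higher and 53.1% for the 12 lower, against 50.3% for all named genes tested. Medians after centring within 20 GC bins are therefore given beside those of the lists, and the part of base composition in single genes was not tested. Reads of a gene and of one on the other strand could not be told apart either. Among the genes named below, exons overlap such a partner in Pou5f1 (Gm19553), Slc33a1, Coq10b, Sox15, Pou3f1, Otx2, Eomes, Krt8, Ago2, Junb (Prdx2), Jak1 (Raver2), Ctnnb1 (Ulk4), Ctnna1 (Lrrtm2), Rnf2 (Trmt1l), Rbbp7 (Txlng), Cyp51 (Akap9), Psph (Cct6a), Txnip and Hist1h2ab.

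**Figure D2:**
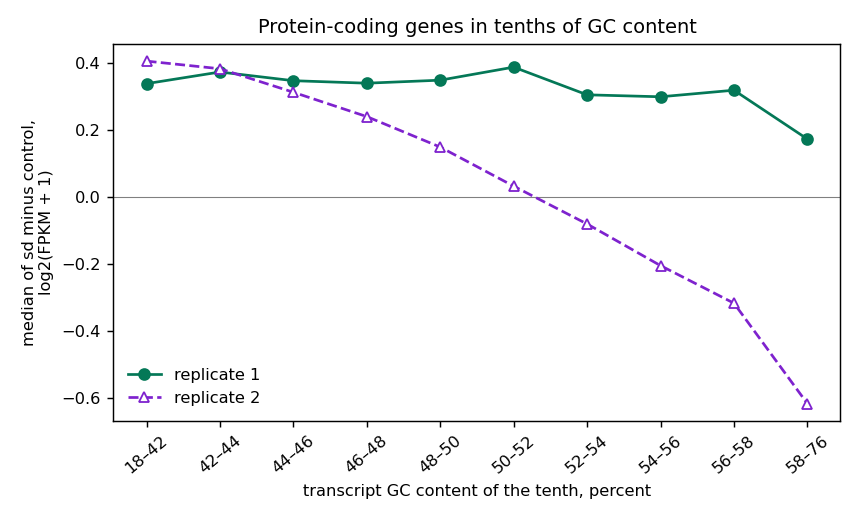
Median difference (sd minus control, log2(FPKM + 1)) of protein-coding genes in 10 equal groups of transcript GC content (x axis, percent), for replicate 1 (filled circles) and replicate 2 (open triangles). The replicate 2 line runs from 0.41 at the low end to -0.62 at the high end, and the replicate 1 line stays between 0.17 and 0.39.

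The 12 named genes with the largest consistent difference on the higher side included an immediate-early transcription factor, 2-cell-like and germline genes and a signalling peptide. Fos, the immediate-early subunit of the AP-1 transcription factor (chromosome 12, 85473890 to 85477273, GRCm38), had 240 and 364 reads in sd (5.02 and 10.1 FPKM), against 0 and 27 reads in control (0 and 3.14 FPKM). In replicate 1 it was 25.2-fold higher in sd, taking 3 reads as the control floor. The exact 95% interval of the replicate 1 ratio began at 20.4. In replicate 2 the ratio was 3.21, with an exact 95% interval of 2.17 to 4.94 that covers counting error only. Both sd libraries lay above both control libraries, and the log2 difference was 2.004 (SE 1.25).

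Apela encodes a small secreted peptide of early embryos that is a ligand of the apelin receptor (chromosome 8, 65028417 to 65037336). It had 94.0 and 563 FPKM in sd, against 37.6 and 70.2 FPKM in control. The sd libraries were both the higher ones, but they differed from each other by more than they did from control in replicate 1. The ratio of sd to control was 2.50 in replicate 1 (exact 95% interval 2.19 to 2.87) and 8.02 in replicate 2 (7.08 to 9.11), and the log2 difference was 2.14 (SE 1.002). Its reads are uncertain, because 27.4% of its 31-base stretches also belong to transcripts of another gene and Gm45886 overlaps it on its own strand.

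Magea4, an X-linked melanoma antigen family gene of the germline, had 70 and 47 reads in sd, against 0 and 1 reads in control. It was 7.36-fold higher in sd in replicate 1 with 3 reads as the control floor, and the exact 95% interval began at 5.83. In replicate 2 the ratio was 11.2 with an exact 95% interval of 1.91 to 451, wide because of the single control read. Zscan5b, a SCAN-domain zinc finger gene, had 80 and 68 reads in sd, against 0 and 2 in control. On the same floor it was 8.41-fold higher in replicate 1, where the exact 95% interval began at 6.68. Its ratio in replicate 2 was 8.10 (2.16 to 68.2). The libraries of both genes were separate, but both reached a mean of 1 FPKM in sd alone, so the filter set their sign. Slc33a1, the acetyl-CoA transporter of the endoplasmic reticulum, had 10.6 and 5.67 FPKM in sd, against 3.43 and 1.16 FPKM in control, and the log2 difference was 1.51 (SE 0.61). Syap1, on the X chromosome, had 12.4 and 9.41 FPKM in sd, against 4.77 and 3.49 FPKM in control. Coq10b, which encodes a coenzyme Q-binding protein of mitochondria, had 9.37 and 6.57 FPKM in sd, against 3.76 and 2.28 FPKM in control. These 3 genes had similar differences in both numbers (1.12 to 1.63 log2) and separate libraries, at a depth of at least 15 control reads. Prps1l3, a phosphoribosyl pyrophosphate synthetase-like gene, had 17.0 and 48.2 FPKM in sd, against 5.62 and 19.7 FPKM in control; its libraries overlapped, 31.4% of its stretches are shared and Mipol1 overlaps it on the same strand. 3 microRNA genes completed the set at very low counts.

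Mir6400, inside Decr1 and on its strand, was read 13 and 9 times in sd and 0 times in both control libraries. For Mir3473b there were 4 and 3 reads in the sd libraries, and for Mir363, of the X-linked miR-106a-363 cluster, 2 and 5, with both at 0 in control. Mir6400, Mir3473b and Mir363 passed the filter through sd alone, so the filter set their sign. Because the control libraries were shallow, 3 reads were taken as the control floor of Mir6400. On that floor it was 1.37-fold higher in sd in replicate 1 and not higher in replicate 2. The exact 95% interval of its read ratio began at 0.961 in replicate 1 and at 0.470 in replicate 2. Both intervals include no difference, so no minimum difference can be given for Mir6400. A difference was not detectable at this depth for Mir3473b and Mir363. Such libraries can also read a precursor or host transcript, so these values are not levels of mature microRNAs.

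**Figure D3:**
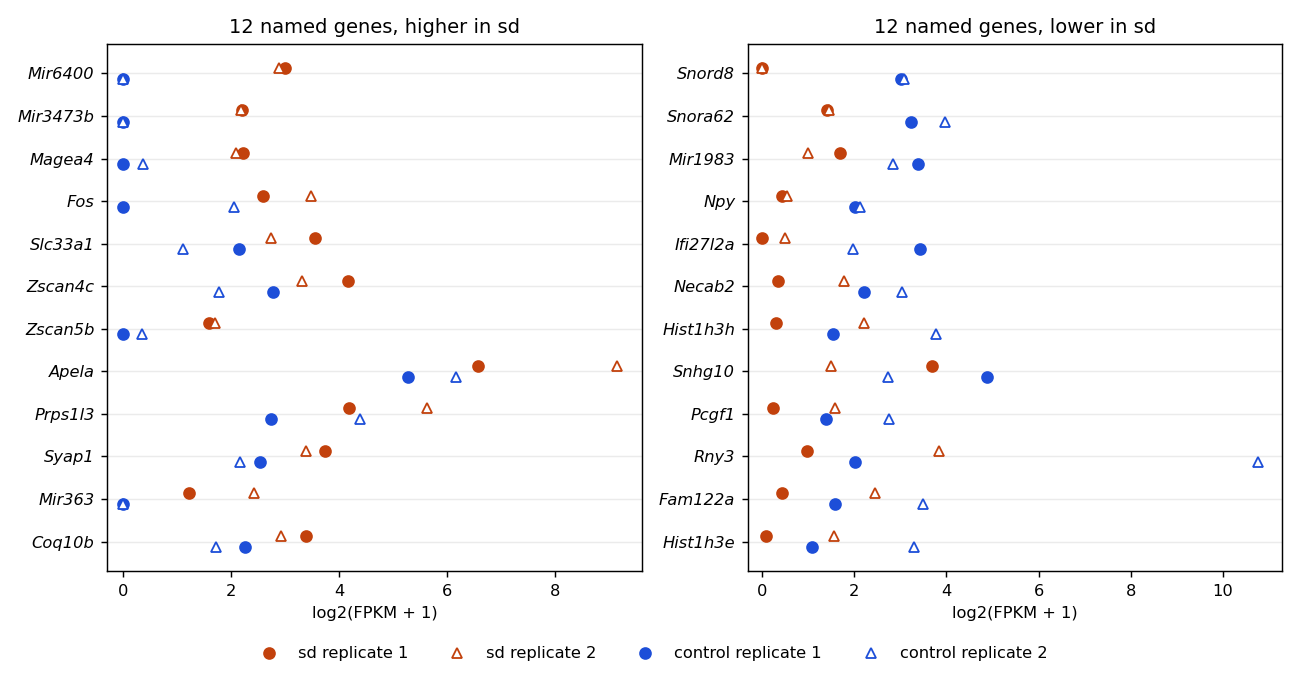
Level of the 12 named genes higher in sd (left panel) and the 12 lower in sd (right panel) as log2(FPKM + 1) on the x axis, with sd in orange above control in blue on each row, replicate 1 as filled circles and replicate 2 as open triangles. Libraries do not overlap for genes such as Fos, Magea4 and Npy, and they overlap for Prps1l3, Hist1h3h, Snhg10, Pcgf1, Rny3, Fam122a and Hist1h3e.

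On the lower side, the 12 named genes included small nucleolar RNAs, a neuropeptide, an interferon-inducible gene, replication histones and a Polycomb subunit. Npy, which encodes neuropeptide Y (chromosome 6, 49822710 to 49829507), had 4 and 4 reads in sd (0.347 and 0.460 FPKM), against 11 and 7 reads in control (3.03 and 3.38 FPKM). The ratio of sd to control was 0.115 in replicate 1 (exact 95% interval 0.0266 to 0.387) and 0.136 in replicate 2 (0.0292 to 0.535). The control libraries were the higher ones although they were the shallower, and the log2 difference was -1.58 (SE 0.56). Ifi27l2a, an interferon-inducible gene, had 0 and 3 reads in sd, against 29 and 5 reads in control. Its sd value was 0.0326 of control in replicate 1 with 3 reads as the sd floor, and the exact 95% interval ended at 0.0428. The ratio was 0.143 in replicate 2 (0.0222 to 0.734). Necab2, a neuronal calcium-binding protein gene, had 0.281 and 2.42 FPKM in sd, against 3.64 and 7.17 FPKM in control. Both genes had separate libraries, with log2 differences of -2.45 (SE 0.70) and -1.56 (SE 0.83). Npy and Ifi27l2a reached a mean of 1 FPKM in control alone, so the filter set their sign.

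The small RNAs on the lower side rested on few reads. Snord8, a C/D box small nucleolar RNA inside Chd8, had 0 and 0 reads in sd, against 5 and 3 reads in control. It passed the filter through control alone, so the filter set its sign. Snora62, an H/ACA box small nucleolar RNA inside Rpsa, had 5 and 4 reads in sd, against 8 and 8 reads in control. Mir1983 had 6 and 2 reads in sd, against 8 and 3 in control. Since the sd libraries were the deeper, these correspond to lower FPKM in both sd libraries than in both control libraries. Rny3, a Y RNA of the Ro ribonucleoprotein, had 2 and 21 reads in sd, against 2 and 642 reads in control, so its log2 difference of -3.97 (SE 2.58) came from control replicate 2; without that library it was 0.39. Snhg10, a small nucleolar RNA host gene, had 11.98 and 1.85 FPKM in sd, against 28.3 and 5.68 FPKM in control, and its groups overlapped. Fam122a had 0.345 and 4.49 FPKM in sd, against 2.005 and 10.2 FPKM in control, also overlapping. The 12 lower genes stayed lower in both numbers after either scaling (quantile or median ratio), and the 12 higher genes stayed higher. That is no support for them, because they were chosen for large differences of the same sign in both numbers. The median of all genes moved only from 0.27 to -0.03 (quantile) or 0 (median ratio) in replicate 1. In replicate 2 it moved from -0.01 to 0.14 or 0.05, so a change of sign was hardly possible. Past 1 log2 unit in both numbers there remained 9 and 7 of the 12 higher genes under those scalings, and 12 and 11 of the 12 lower.

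The Zscan4 genes are transcribed in bursts in stem cells and in the early cleavage embryo. Those of the 2-cell-like list above the filter were all higher in sd within both replicate numbers. Zscan4a was higher by only 0.05 in replicate 1, and Zscan4b and Zscan4e passed the filter through sd alone, so the filter set their sign. Upstream regions of Zscan4c, Zscan4f and Zscan4d are shown because the copies share most of their sequence, both there and in their transcripts. The sequences are the 250 bases before the annotated start from RefSeq on GRCm38.p6, written 5′ to 3′ on the gene's strand, with the motif TATAAA in capitals (searched on both strands). They lie at chr7:11005495-11005744 on the plus strand, chr7:11397665-11397914 on the plus strand and chr7:11166149-11166398 on the minus strand.
Zscan4c: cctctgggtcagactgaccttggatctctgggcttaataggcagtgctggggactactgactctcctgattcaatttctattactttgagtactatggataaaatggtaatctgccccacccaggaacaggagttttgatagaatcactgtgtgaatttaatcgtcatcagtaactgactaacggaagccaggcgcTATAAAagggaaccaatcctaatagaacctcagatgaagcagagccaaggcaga
Zscan4f: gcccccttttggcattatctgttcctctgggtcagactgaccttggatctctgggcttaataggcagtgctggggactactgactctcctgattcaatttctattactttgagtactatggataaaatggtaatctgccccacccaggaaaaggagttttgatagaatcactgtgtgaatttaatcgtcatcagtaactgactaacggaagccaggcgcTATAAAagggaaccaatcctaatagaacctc
Zscan4d: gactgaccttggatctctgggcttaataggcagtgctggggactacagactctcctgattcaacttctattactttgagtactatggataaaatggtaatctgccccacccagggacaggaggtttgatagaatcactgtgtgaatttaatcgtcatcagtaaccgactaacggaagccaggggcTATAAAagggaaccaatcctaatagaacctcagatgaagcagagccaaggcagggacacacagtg
The motif begins 54 bases before the start in Zscan4c, 31 in Zscan4f and 65 in Zscan4d, and it occurs in 12.4% of 32851 promoter windows in that table. Once aligned, Zscan4c and Zscan4f were identical at 226 of 227 bases, Zscan4c and Zscan4d at 232 of 239, and Zscan4f and Zscan4d at 209 of 216.

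Zscan4c had 777 and 310 reads in sd (16.8 and 8.86 FPKM), against 85 and 20 reads in control (5.82 and 2.40 FPKM). The ratio was 2.88 in replicate 1 (exact 95% interval 2.30 to 3.65) and 3.69 in replicate 2 (2.35 to 6.13). Zscan4f had 12.1 and 7.91 FPKM in sd, against 5.33 and 2.79 FPKM in control. Both sd libraries lay above both control libraries for these 2 genes, with log2 differences of 1.46 (SE 0.66) and 1.14 (SE 0.56). Zscan4d had 13.8 and 4.81 FPKM in sd, against 9.74 and 1.92 FPKM in control, and Zscan4e had 1.15 and 3.41 FPKM in sd, against 0.522 and 1.37 FPKM in control. The groups overlapped for both. Of the 31-base stretches of these transcripts 65.0% to 94.5% occur in another gene, so the 4 genes cannot be counted as 4 independent observations. Of the 16 genes of the 2-cell-like list 10 lay above the filter, 8 with a positive mean difference and 6 higher within both numbers, beside 59.5% positive, 35% higher in both and 13.1% lower in both among all genes tested. The list's median difference was 0.19 in replicate 1 and 0.94 in replicate 2. After GC centring those medians were -0.13 and 0.58. Of the 10 genes, 2 (Zscan4b and Zscan4e) reached a mean of 1 FPKM in sd alone and 1 (Usp17la) in control alone, so the filter set their sign. Of the 20 germline genes 15 lay above the filter, 1 of them (Magea4) through sd alone, with 8 higher and 0 lower within both numbers. Their medians were 0.15 and 0.59, and -0.08 and 0.35 after GC centring, where 2 were higher and 0 lower in both.

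The core pluripotency factors did not move together. Pou5f1, which encodes Oct4 (chromosome 17, 35506018 to 35510772), had 17.8 and 130 FPKM in sd, against 83.1 and 251 FPKM in control. Each sd library was below the control library of its number, but sd replicate 2 was above control replicate 1, so the groups overlapped. The ratio of sd to control was 0.214 in replicate 1 (exact 95% interval 0.196 to 0.235) and 0.517 in replicate 2 (0.491 to 0.545), and the log2 difference was -1.55 (SE 1.12). Sox2, which lies inside Sox2ot on that gene's strand, had 207 and 231 FPKM in sd, against 200 and 291 FPKM in control, a difference of 0.05 in replicate 1 and -0.33 in replicate 2. Nanog had 335 and 269 FPKM in sd, against 243 and 215 FPKM in control. Both sd libraries of Nanog were above both control libraries, by 0.46 and 0.32 log2 units, where the median of all genes was 0.27 and -0.01. After GC centring the Nanog differences were 0.20 and 0.07. Those of Pou5f1 were then -2.42 and -0.70, and those of Sox2 -0.23 and -0.39.

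Other members of the network were mostly on the higher side. Of the 24 general pluripotency genes 21 had a positive mean difference and 15 were higher and 1 lower within both numbers, to be read against the same shares of all genes. Medians were 0.43 and 0.28, and 0.12 and 0.30 after GC centring. Tdgf1, the Nodal co-receptor Cripto, had 255 and 425 FPKM in sd, against 167 and 297 FPKM in control. Dppa4, a chromatin-associated factor of pluripotent cells, had 43.1 and 34.4 FPKM in sd, against 26.3 and 24.2 FPKM in control. Only Dppa4 of these 2 had separate libraries, and 41.9% of its stretches, and 16.1% of those of Tdgf1, are shared with another gene. Among 26 naive genes 21 had a positive mean difference, 16 were higher and 3 lower within both numbers, with medians of 0.40 and 0.38, and 0.12 and 0.28 after GC centring.

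Tfcp2l1, a transcription factor of the naive state downstream of LIF, had 12.4 and 11.2 FPKM in sd, against 8.41 and 7.50 FPKM in control. Fbxo15, an F-box gene regulated by Oct4 and Sox2, had 38.5 and 57.5 FPKM in sd, against 26.2 and 38.0 FPKM in control. Both had separate libraries and nearly equal differences in both numbers, 0.51 and 0.52 for Tfcp2l1 and 0.54 and 0.59 for Fbxo15. Sox15, a Sox factor of stem cells, was among the 3 on the lower side, with 3.77 and 27.8 FPKM in sd, against 7.06 and 45.1 FPKM in control. In the formative and primed list, 15 of 20 genes lay above the filter. Within both numbers 5 were higher (33.3%, beside 35% of all genes) and 4 lower (26.7%, beside 13.1%). The sign of the list's median turned with scaling (0.03 as deposited, lowest value -0.11). Its medians were 0.36 and -0.07 in the 2 numbers, and 0.21 and 0.14 after GC centring. Pou3f1, a POU factor of the formative state, had 0.702 and 0.710 FPKM in sd, against 3.24 and 2.06 FPKM in control, with separate libraries and a log2 difference of -1.08 (SE 0.57). Its difference in replicate 2 was -0.84, and -0.05 after GC centring. Pou3f1 passed the filter through control alone, so the filter set its sign. Otx2, an early factor of that transition, had 399 and 483 reads in sd, against 3 and 85 reads in control, so most of its difference was in replicate 1 (2.35, against 0.38 in replicate 2). Tcf15, a helix-loop-helix factor, was below control in both numbers by 0.33 and 0.46, and above it by 0.33 in replicate 2 after GC centring.

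**Figure D4:**
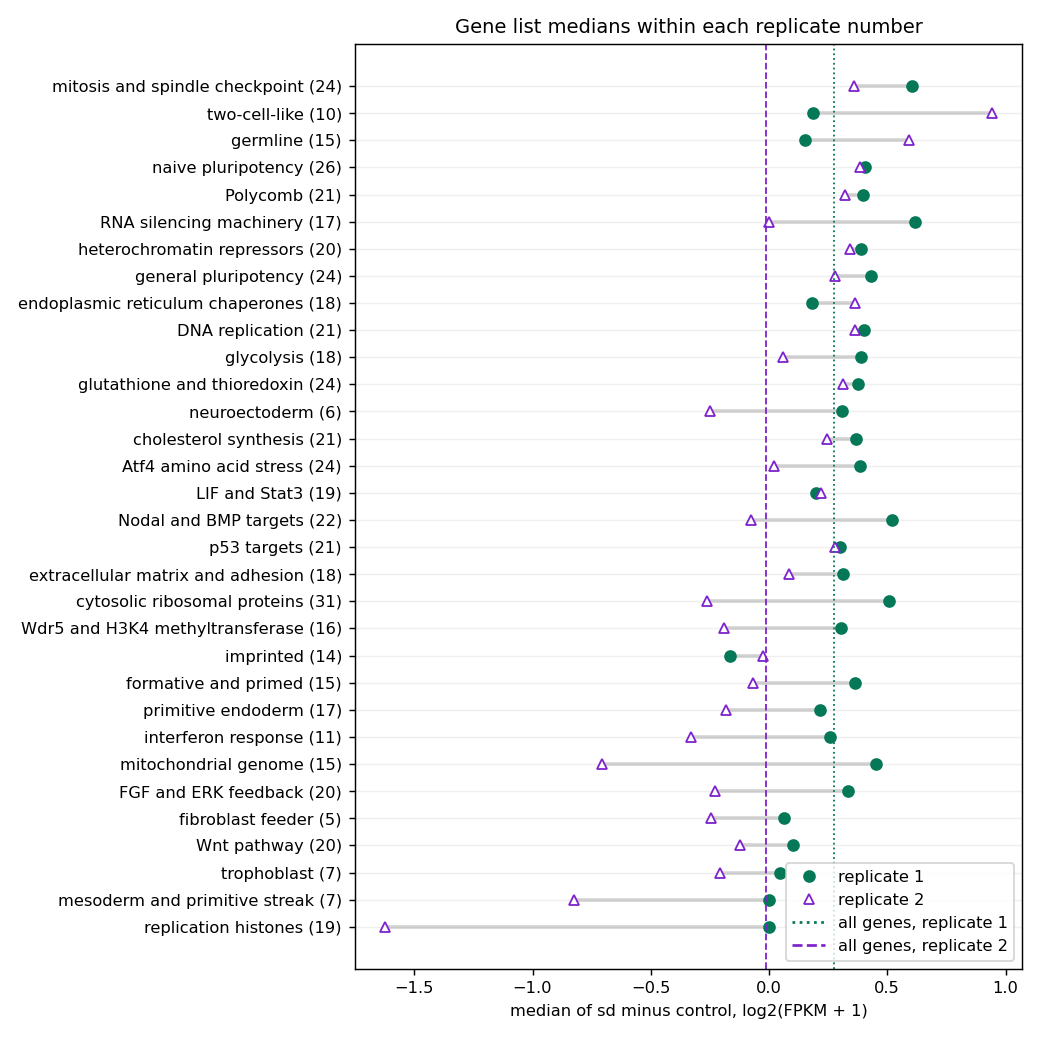
Median difference (sd minus control, log2(FPKM + 1), x axis) of each of 32 gene lists in replicate 1 (filled circles) and replicate 2 (open triangles), with the number of members above the filter in brackets; the dotted and dashed lines are the medians of all genes tested, 0.27 and -0.01. The mitosis and naive pluripotency lists lie to the right of both lines in both numbers, and the replication histone list lies at 0.00 in replicate 1 and -1.62 in replicate 2.

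Of the immediate-early and feedback genes of LIF and ERK signalling, Fos was higher in sd and several others had lower values. Junb, the AP-1 partner of Fos and a target of LIF signalling, had 11.9 and 1.73 FPKM in sd, against 23.7 and 4.51 FPKM in control. Myc had 13.7 and 0.479 FPKM in sd, against 21.7 and 2.11 FPKM in control. Ier3, an immediate-early gene, had 1.13 and 7.83 FPKM in sd, against 2.76 and 11.8 FPKM in control. Each of the 3 was lower in sd within both numbers, by 0.54 to 1.07 log2 units, and overlapped between groups because the replicate numbers differed more than the groups. Dusp6, the ERK phosphatase induced by FGF signalling, had 94.9 and 1.66 FPKM in sd, against 137 and 2.62 FPKM in control, lower by 0.52 and 0.44. After GC centring the Junb difference in replicate 2 was -0.23, against -1.02 before. Jak1, the kinase that carries the LIF signal, had 10.9 and 6.02 FPKM in sd, against 5.03 and 4.43 FPKM in control, with separate libraries.

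The upstream regions of Fos and Junb are shown because these 2 subunits of AP-1 were on opposite sides. Both hold the letters TGACG, the core of the site for cyclic AMP-responsive factors, given in capitals. The windows are chr12:85473640-85473889 on the plus strand and chr8:84978749-84978998 on the minus strand, from RefSeq on GRCm38.p6, written 5′ to 3′.
Fos: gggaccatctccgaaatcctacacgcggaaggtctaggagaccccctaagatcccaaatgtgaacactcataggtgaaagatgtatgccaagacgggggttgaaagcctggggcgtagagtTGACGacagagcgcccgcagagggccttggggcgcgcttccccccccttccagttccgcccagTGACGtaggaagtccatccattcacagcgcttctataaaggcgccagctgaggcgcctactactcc
Junb: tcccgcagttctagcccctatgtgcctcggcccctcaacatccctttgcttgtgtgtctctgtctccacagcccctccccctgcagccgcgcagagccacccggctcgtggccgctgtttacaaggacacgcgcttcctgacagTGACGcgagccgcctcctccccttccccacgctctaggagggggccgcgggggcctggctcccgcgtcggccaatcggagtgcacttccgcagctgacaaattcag
The motif begins 129 and 66 bases before the start of Fos and 106 before that of Junb, on the gene's strand, and 17.8% of the 32851 promoter windows hold it on either strand. A match describes these letters only. Of the 20 FGF and ERK feedback genes 5 were higher (25%, beside 35% of all genes) and 7 lower (35%, beside 13.1%) within both numbers. Their medians were 0.34 and -0.23, and 0.10 and -0.10 after GC centring. Of the 19 LIF and Stat3 genes above the filter 8 were higher (42.1%, beside 35% of all genes) and 4 lower (21.1%, beside 13.1%), with medians of 0.20 and 0.22. After GC centring that list had 4 higher and 5 lower, with medians of -0.09 and 0.17.

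In the Wnt list, 20 of 28 genes lay above the filter, 3 higher (15%, beside 35% of all genes) and 5 lower (25%, beside 13.1%) within both numbers. The list's medians were 0.10 and -0.12, and -0.14 and -0.09 after GC centring. Ctnnb1, which encodes beta-catenin, went against that, with 21.4 and 55.2 FPKM in sd, against 14.7 and 26.7 FPKM in control. Its partners at cell contacts did likewise: Cdh1, which encodes E-cadherin, had 18.6 and 24.8 FPKM in sd, against 6.82 and 16.1 FPKM in control. Ctnna1, which encodes alpha-catenin and links cadherin to actin, had 59.1 and 48.5 FPKM in sd, against 46.3 and 23.6 FPKM in control. All 3 were higher in both numbers, by 0.51 and 1.02 for Ctnnb1, 1.33 and 0.59 for Cdh1 and 0.35 and 1.01 for Ctnna1, and the libraries of Cdh1 and Ctnna1 were separate. Of 18 matrix and adhesion genes above the filter 10 were higher (55.6%, beside 35% of all genes) and 0 lower (beside 13.1%) within both numbers. Their medians were 0.31 and 0.09, and 0.02 and 0.30 after GC centring. Of 22 Nodal and BMP target genes 7 were higher (31.8%, beside 35%) and 4 lower (18.2%, beside 13.1%). Medians of that list were 0.52 and -0.08, and 0.20 and 0.00 after GC centring.

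Subunits of the same chromatin complexes lay on both sides. Rnf2, the ubiquitin ligase of Polycomb complex PRC1, had 67.1 and 31.7 FPKM in sd, against 32.5 and 16.0 FPKM in control, higher by 1.02 and 0.95. Rbbp7, a histone-binding subunit shared by PRC2 and deacetylase complexes, had 45.3 and 66.7 FPKM in sd, against 28.4 and 40.4 FPKM in control. Rnf2 overlapped between groups and Rbbp7 did not. Pcgf1, the subunit that defines the variant PRC1 with Kdm2b, had 6 and 51 reads in sd, against 17 and 35 reads in control, lower by 1.15 and 1.17, and 34.1% of its stretches are shared. Of the 21 Polycomb genes above the filter 13 were higher (61.9%, beside 35% of all genes) and 5 lower (23.8%, beside 13.1%) within both numbers. Their medians were 0.40 and 0.32, and 0.09 and 0.18 after GC centring.

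Of 20 heterochromatin repressor genes above the filter 13 were higher (65%, beside 35% of all genes) and 0 lower (beside 13.1%) within both numbers. Their medians were 0.39 and 0.34, and 0.09 and 0.14 after GC centring. Kdm1a, the histone demethylase LSD1, had 22.8 and 24.8 FPKM in sd, against 9.84 and 17.4 FPKM in control, and Hdac2, its deacetylase partner, had 18.0 and 19.6 FPKM in sd, against 13.1 and 12.4 FPKM in control. The libraries of both were separate. Wdr5, the scaffold of the H3K4 methyltransferases, had 23.7 and 40.2 FPKM in sd, against 16.2 and 30.5 FPKM in control. Ash2l, a core subunit of the same complexes, had 21.2 and 24.3 FPKM in sd, against 9.75 and 19.3 FPKM in control. Kmt2d, a catalytic subunit, had 1.30 and 0.839 FPKM in sd, against 1.86 and 2.32 FPKM in control. Ash2l was higher and Kmt2d lower with separate libraries, and Wdr5 overlapped. Of the 16 genes of that list 5 were higher (31.3%, beside 35% of all genes) and 2 lower (12.5%, beside 13.1%) within both numbers. The list's median was 0.11 as deposited and -0.04 after median ratio scaling. Within the numbers the medians were 0.30 and -0.19, and 0.02 and -0.04 after GC centring.

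Genes of the cell division cycle mostly had higher values in sd in both replicate numbers. All 24 mitosis and spindle checkpoint genes lay above the filter, 23 with a positive mean difference. Within both numbers 21 were higher (87.5%, beside 35% of all genes tested) and 0 lower (beside 13.1%). Both sd libraries lay above both control libraries for 10 of the 24 genes, beside 10.4% of all genes tested. Their median was 0.61 in replicate 1 and 0.36 in replicate 2, against 0.27 and -0.01 for all genes. After GC centring the medians were 0.30 and 0.21, with 13 higher and 3 lower within both numbers, beside 27.8% of all genes on each side. Kif23, a motor protein of the central spindle, had 7.54 and 7.40 FPKM in sd, against 4.66 and 3.77 FPKM in control. Bub1b, a spindle checkpoint kinase, had 18.9 and 17.5 FPKM in sd, against 12.4 and 9.91 FPKM in control. In both genes the sd libraries agreed closely and lay above both control libraries. Bub1, its partner kinase, had 18.1 and 26.7 FPKM in sd, against 8.94 and 17.7 FPKM in control, and Ndc80, a microtubule-binding subunit of the kinetochore, had 4.55 and 5.86 FPKM in sd, against 1.94 and 3.58 FPKM in control. These 2 also had separate libraries, and the log2 differences of the 4 genes were 0.67 to 0.76.

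Of the 21 DNA replication genes above the filter 18 had a positive mean difference. Within both numbers 15 were higher (71.4%, beside 35% of all genes) and 1 lower (4.76%, beside 13.1%). Their medians were 0.40 and 0.36, and 0.15 and 0.28 after GC centring. Mcm6, a helicase subunit, had 29.9 and 48.6 FPKM in sd, against 13.3 and 32.7 FPKM in control, and Mcm4, another, had 101 and 50.3 FPKM in sd, against 71.3 and 29.0 FPKM in control. Gins1, a subunit of the helicase's GINS partner, had 43.3 and 40.8 FPKM in sd, against 24.7 and 28.8 FPKM in control. Rrm1, the large subunit of ribonucleotide reductase, had 18.5 and 10.9 FPKM in sd, against 11.2 and 6.88 FPKM in control. Each was higher in both numbers, by 0.49 to 1.11 log2 units, and only Gins1 of these 4 had separate libraries.

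The replication-dependent histone genes went the other way in replicate 2. Of 24 members 19 lay above the filter. Within both numbers 0 were higher (beside 35% of all genes) and 6 lower (31.6%, beside 13.1%). The medians were 0.00 in replicate 1 and -1.62 in replicate 2. After GC centring 1 was higher and 12 were lower within both numbers, beside 27.8% of all genes on each side. The medians were then -0.28 and -1.38. Of the 19, 5 reached a mean of 1 FPKM in control alone, so the filter set their sign. Hist1h3e had 1 and 25 reads in sd, against 6 and 27 reads in control, and Hist1h2ab had 2 and 76 reads in sd, against 2 and 91 reads in control. Hist1h3h, named by rank, had 2 and 23 reads in sd, against 5 and 19 reads in control. The control libraries gave about as many reads as sd from much smaller totals, which is what the lower FPKM in sd reflects. From 62.2% to 94.5% of the stretches of these genes are shared with transcripts of other genes, and their messages lack a poly(A) tail. Of the 19 members, 18 lie on chromosome 13.

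In glutathione metabolism, several enzyme genes had higher values in sd in both numbers. Chac2, which encodes a glutathione-degrading enzyme, had 370 and 114 reads in sd, against 2 and 12 reads in control. The ratio was 58.3 in replicate 1 (exact 95% interval 16.0 to 483) and 2.26 in replicate 2 (1.25 to 4.51). Asb3 contains it on the other strand. Gsto1, a glutathione transferase, had 8.21 and 7.69 FPKM in sd, against 2.003 and 3.51 FPKM in control, and Gsr, glutathione reductase, had 50.6 and 32.2 FPKM in sd, against 26.3 and 17.0 FPKM in control. All 3 had separate libraries, with log2 differences of 2.25 (SE 0.84), 1.28 (SE 0.68) and 0.90 (SE 0.61). Txnip, the inhibitor of thioredoxin, had 53.9 and 137 FPKM in sd, against 33.0 and 78.8 FPKM in control, and overlapped. Of 24 glutathione and thioredoxin genes above the filter 16 had a positive mean difference (66.7%, beside 59.5% of all genes). Within both numbers 14 were higher (58.3%, beside 35%) and 1 lower (4.17%, beside 13.1%). Their medians were 0.38 and 0.31, and 0.09 and 0.16 after GC centring.

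Psat1, which makes phosphoserine in serine synthesis, had 18.8 and 43.0 FPKM in sd, against 10.2 and 17.7 FPKM in control, with separate libraries. Psph, the phosphatase of the last step of that pathway, had 9.88 and 16.8 FPKM in sd, against 3.89 and 11.1 FPKM in control. Atf4, the transcription factor of the amino acid response, had 34.8 and 96.4 FPKM in sd, against 23.9 and 65.5 FPKM in control. Asns, its target asparagine synthetase, had 62.0 and 185 FPKM in sd, against 44.1 and 125 FPKM in control. Each was higher within both numbers, by 0.48 to 1.24 log2 units, and the last 3 overlapped. Of 24 genes of the Atf4 list above the filter 10 were higher (41.7%, beside 35% of all genes) and 1 lower within both numbers, with medians of 0.39 and 0.02, and 0.10 and 0.31 after GC centring. In cholesterol synthesis, 21 of 22 genes lay above the filter, 8 higher (38.1%, beside 35% of all genes) and 0 lower (beside 13.1%). Their medians were 0.37 and 0.24, and 0.09 and 0.30 after GC centring. Cyp51, lanosterol demethylase, had 15.1 and 30.97 FPKM in sd, against 9.04 and 15.7 FPKM in control, and Sqle, squalene epoxidase, had 23.4 and 11.96 FPKM in sd, against 12.5 and 8.33 FPKM in control. Hsd17b7 of the same pathway had 2.37 and 3.71 FPKM in sd, against 1.22 and 2.14 FPKM in control, and was the only one of the 3 with separate libraries. Glycolysis had 9 genes higher (50%, beside 35%) and 1 lower (5.56%, beside 13.1%) of 18, with medians of 0.39 and 0.06, and 0.13 and 0.16 after GC centring.

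Endoplasmic reticulum chaperones had 9 higher (50%, beside 35% of all genes) and 2 lower (11.1%, beside 13.1%) of 18, with medians of 0.18 and 0.36. After GC centring they had 6 higher and 2 lower, with medians of -0.11 and 0.27. The 31 ribosomal protein genes had medians of 0.51 and -0.26 (0.21 and -0.18 after GC centring), and the 15 mitochondrially encoded genes 0.45 and -0.71 (0.27 and -0.999 after GC centring), so both lists lay on opposite sides in the 2 numbers. The overall median of the ribosomal list turned from positive as deposited to negative after median ratio scaling, as did that of the p53 targets and of the imprinted genes.

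Of the machinery of small RNAs, Prkra, a partner of Dicer and of the double-stranded RNA kinase, had 272 and 378 reads in sd, against 2 and 58 reads in control. Ago2, the slicing Argonaute, had 10.1 and 4.79 FPKM in sd, against 4.23 and 3.37 FPKM in control, and Dicer1 had 1.82 and 1.34 FPKM in sd, against 0.279 and 1.06 FPKM in control. Ago2 and Dicer1 had separate libraries and Prkra did not. In all 3 the difference was mainly in replicate 1 (1.08 to 2.72, against 0.18 to 0.57 in replicate 2). After GC centring the Dicer1 difference in replicate 2 was -0.07. Of the 17 genes above the filter, 2 (Dicer1 and Dgcr8) passed it through sd alone, so the filter set their sign. The 17 genes had medians of 0.62 and 0.00, and 0.33 and 0.00 after GC centring. In the interferon list, where Ifi27l2a was lower, 11 of 25 genes lay above the filter. Of these, 2 (Ifi27l2a and Oas1a) passed through control alone, so the filter set their sign. Within both numbers 2 were higher (18.2%, beside 35% of all genes) and 3 lower (27.3%, beside 13.1%), with medians of 0.26 and -0.33. After GC centring 1 was higher and 5 were lower, beside 27.8% of all genes on each side. The medians were then -0.01 and -0.35. Stat2, a transducer of interferon signalling, had 2.28 and 5.11 FPKM in sd, against 0.579 and 2.91 FPKM in control, higher by 1.06 and 0.64.

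Among the lineage lists, 7 of 16 mesoderm and primitive streak genes lay above the filter, 2 of them through control alone, so that the filter set their sign. Within both numbers 0 were higher (beside 35% of all genes) and 3 lower (42.9%, beside 13.1%). Their medians were 0.00 and -0.82, and -0.02 and -0.03 after GC centring. Eomes, a T-box factor of the streak and trophoblast, had 1.83 and 1.63 FPKM in sd, against 3.15 and 2.04 FPKM in control, with separate libraries. Its difference in replicate 2 was -0.21, and 0.03 after GC centring. Of 16 trophoblast genes 7 lay above the filter, 2 of them through control alone, with 2 higher (28.6%) and 3 lower (42.9%). Their medians were 0.05 and -0.21 (-0.24 and 0.15 after GC centring). Tfap2c, an AP-2 factor of trophoblast and of stem cells, had 10.7 and 15.1 FPKM in sd, against 5.25 and 9.21 FPKM in control, and Krt8, a simple-epithelium keratin, had 0.176 and 2.93 FPKM in sd, against 1.67 and 5.44 FPKM in control. The 2 genes lay on opposite sides in both numbers, and 32.5% of the stretches of Krt8 are shared. In primitive endoderm 17 of 18 genes lay above the filter, 3 higher (17.6%) and 4 lower (23.5%). The medians of that list were 0.22 and -0.18, and -0.10 and -0.13 after GC centring. Of 16 neuroectoderm genes 6 lay above the filter, 1 higher and 1 lower (16.7% each). Of 17 feeder genes 5 lay above it, 2 higher (40%) and 1 lower (20%). Of those 5 feeder genes 2 passed through control alone, and of the 6 neuroectoderm genes 1 passed through sd alone. The medians of the primitive endoderm, trophoblast and feeder lists were negative as deposited and positive among genes with a mean of at least 5 FPKM, and those of the trophoblast and feeder lists were positive with voom as well.

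By chromosome, protein-coding genes on chromosome 13 had lower values in sd than genes of the same GC content elsewhere, mostly in replicate 1. Over 420 genes the GC-centred median difference was -0.29 in replicate 1, where 69.0% of the genes were below 0, and -0.09 in replicate 2. In 4 successive blocks of 105 genes along the chromosome the median was -0.21, -0.26, -0.33 and -0.36 in replicate 1, and -0.41, -0.05, -0.07 and -0.01 in replicate 2. The 341 genes of the X chromosome had higher GC-centred values, with medians of 0.14 and 0.10. The other treated groups share the control libraries, so their values are only set side by side: on chromosome 13 the medians were -0.02 and -0.10 for sh and -0.19 and -0.06 for dd, and on the X chromosome 0.01 and 0.07 for sh and 0.08 and 0.11 for dd. These chromosomes were picked after their values were seen, and the source of the values was not tested.

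**Figure D5:**
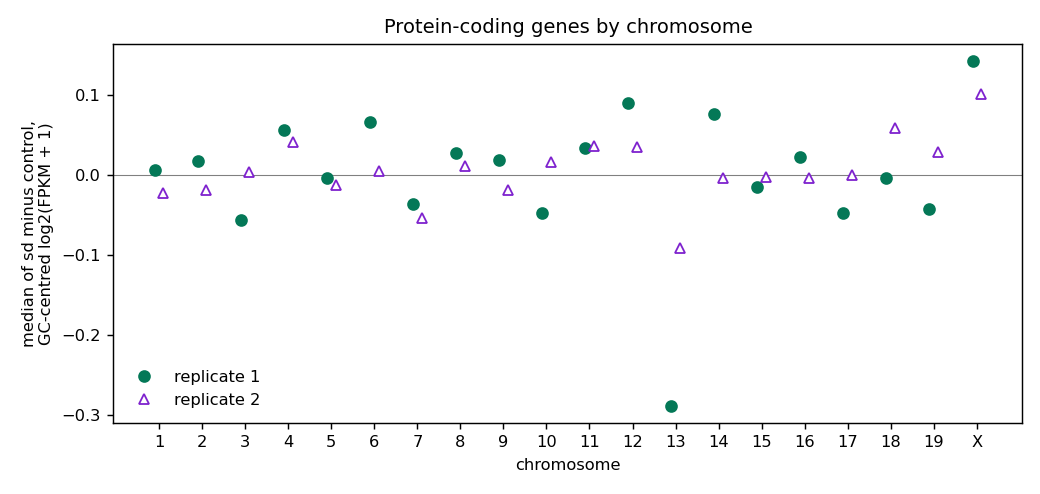
GC-centred median difference (sd minus control, log2(FPKM + 1), y axis) of protein-coding genes on each chromosome (x axis), for replicate 1 (filled circles) and replicate 2 (open triangles). Chromosome 13 lies at -0.29 in replicate 1 and -0.09 in replicate 2, and the X chromosome at 0.14 and 0.10.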

How the data were processed

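RNA-seq values of mouse embryonic stem cells were deposited as FPKM per gene and library, per the file headers. CASAVA 1.4, HISAT2 and the build mm10 are named in the submitters' processing notes. How reads were counted, against which annotation and whether by strand is not given in the sources used here; overlapping and antisense genes therefore could not be told apart. Of 58420 rows, 52338 had values and 52081 matched GENCODE M21 (GRCm38). FPKM times exon length gave whole reads, within 0.02, for 98.3% to 98.9% of values under 100 reads. Differences of log2(FPKM + 1) were tested with limma 3.58.1 (R 4.3.3) over all 8 libraries in 4 groups (4 residual degrees of freedom), with a mean-variance trend and two-sided Benjamini-Hochberg adjusted p-values, and the fit was tested on simulated data. Within-number differences had no test. Exact 95% intervals of read ratios and the floor of 3 reads per library cover counting error only.

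The members and the 32 gene lists were chosen with earlier results of these data known. Where a member passed the filter through 1 group alone, the filter set its sign. Beside the cases given above, sd alone carried 2 primitive endoderm genes and 1 each of the formative, Wdr5, Atf4, glutathione and imprinted lists. Control alone carried 1 each of the primitive endoderm, formative, FGF and ERK, Wnt, Polycomb, Atf4 and imprinted lists. Genes are named by rank: the smaller of their absolute differences in the 2 replicate numbers, for named symbols with the same sign in both, took 12 genes in each direction and up to 4 members of each list, of which examples are printed, with Pou5f1, Sox2 and Nanog always. Gm26165, in the closing section, lies outside this rule and was chosen after its values were seen. It passed the filter through control alone, so the filter set its sign. Alternatives were pseudocounts of 0.1 and 0.5, other filters, quantile and median ratio scaling, 4 libraries only, robust moderation, voom, the replicate block and leaving out each library; GC centring in 20 bins was added after seeing the data.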

Additional observations from a re-analysis of the deposited data

How the results depend on the processing

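The limma fit called 0 genes under every alternative run without a left-out library, except that GC centring with the replicate block called 1, the small nucleolar RNA gene Gm26165 (0 and 0 reads in sd, 8 and 8 in control; limma adjusted p = 0.0368). The replicate block alone called 0 genes (995 unadjusted), and voom with the replicate block 0 (974 unadjusted). Deviations of sd and control libraries with the same number correlated at 0.806, but with 2 pairs and no label of a shared culture the numbers are not taken as pairs. Leaving out each library called 0 to 100 genes. The 159 higher and 42 lower genes were 338 and 211 with a pseudocount of 0.1, 24 and 7 among protein-coding genes and 79 and 75 after GC centring; the lower count was 86 with a pseudocount of 0.5, 70 after median ratio scaling and 20 at a mean FPKM of 5 or more. The 1604 separate higher and 470 separate lower genes were 917 and 90 with that mean, and the lower count was 933 without a filter, 1213 after quantile and 824 after median ratio scaling. In the limma fit the replicate block, 4 libraries only and robust moderation leave the estimated difference unchanged, so they could not reverse a direction. Most genes named were also chosen for the same sign in both numbers. Of 81 genes named, 70 kept their direction under every alternative run, which for these reasons is no evidence of stability. The other 11 reversed in fits that left out a library, in which the replicate numbers are unbalanced. The lowest and highest log2 differences in those fits were -8.34 and 0.39 for Rny3, -0.41 and 0.13 for Sox2, -2.02 and 0.58 for Sox15, -0.21 and 1.67 for Zscan4d, -2.10 and 0.14 for Junb, -2.51 and 0.80 for Myc, -1.71 and 0.35 for Ier3, -3.11 and 2.14 for Dusp6, -0.19 and 1.26 for Atf4, -0.26 and 1.31 for Asns and -3.85 and 1.16 for Hist1h2ab. The cause of these changes was not tested. No mesoderm and primitive streak gene had a mean FPKM of 5 or more, so that list has no median there. The shallow control libraries limit genes with few reads.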

Other observations

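Of 182 small nucleolar RNA genes above the filter, 4 were higher (2.20%, beside 1.03% of all genes tested) and 10 lower (5.49%, beside 0.271%) in sd by at least 1 log2 unit in both replicate numbers. Among the lower genes, Snord8 and Gm26165 passed the filter through control alone, so the filter set their sign. How many others passed through 1 group alone was not counted, so these shares do not describe the class. These 14 genes had at most 32 reads in an sd library and at most 56 in a control library, and the difference between the 2 directions was not tested.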
